A study of Mus musculus with 9 samples.

Results

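HC11 is an established mouse mammary epithelial line, and the libraries compared here came from cultures left untreated (Ctrl) and from cultures exposed to 660 nm red light in the group called EpPT2. They are 6 of the 9 RNA-seq libraries of the series, 3 per group, taken by the column names of the deposited count table, and all 54532 genes of the table entered. Both groups carry the strain label C57BL/6 and were grown in medium with 10% serum, and exposure took place in 12-well dishes. The treatment label of EpPT2 reads 20 J/cm2, whereas the treatment protocol names a 10 mW laser with 0.5 and 1 J/cm2, so no dose is assigned here. The light source is a laser in the title and protocol and an LED in the design text. The labels state no time between exposure and lysis. A further 3 libraries, EpPT1, were exposed with a label of 10 J/cm2 and are given only for reference. HC11 is 1 line. Whether replicates of a group are independent cultures is not labelled, and p-values therefore reflect the spread of libraries, which could be purely technical.

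Red and near-infrared light at low power is used in photobiomodulation. Cytochrome c oxidase, the last enzyme of the mitochondrial respiratory chain, is the absorber most often proposed, and changes in reactive oxygen, calcium and kinase signalling are described downstream. Immediate early genes such as Fos and Jun are switched on within minutes by kinase signalling, and the integrated stress response raises the transcription factor ATF4 when translation initiation is slowed. The expression of members of these pathways is given below as it was measured.

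Total counts were 14768299 to 16095370 in Ctrl and 14549787 to 15809059 in EpPT2, and 14471 genes were abundant enough to test. The libraries did not sort by group alone. Ctrl 3, EpPT2 2 and EpPT2 3 had 7.48%, 6.06% and 6.94% of their counts on mitochondrial genes, against 2.86%, 3.62% and 3.38% in Ctrl 1, Ctrl 2 and EpPT2 1, and this mitochondrial share followed the first principal component. By chi-square per gene the most alike pair was EpPT2 2 and EpPT2 3 (4.95, with Pearson's r of log2 CPM across genes 0.990), still above sampling noise. By Pearson's r it was EpPT2 1 and EpPT1 2 (0.991), a pair that crosses the labels, and EpPT2 1 lay nearer to EpPT1 2 (chi-square per gene 5.66) than to EpPT2 2 (116) or EpPT2 3 (115). EpPT1 3 lay nearest to EpPT2 2 (7.87) and EpPT1 1 to Ctrl 2 (15.1). The labels name no batch, and whether libraries were prepared in batches or exchanged was not tested, so each difference below holds for the libraries as labelled. Results are therefore also given within the libraries of low mitochondrial share, where EpPT2 1 stands alone against Ctrl 1 and Ctrl 2, and within those of high share, where Ctrl 3 stands alone against EpPT2 2 and EpPT2 3. The low share fit also held EpPT1 1 and EpPT1 2, so its spread includes the difference between them (chi-square per gene 77.0). The high share fit also held EpPT1 3. Neither split gives a dependable test.

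Of 13 luminal markers, 7 exceeded 1 CPM (counts scaled to library size) in all 6 libraries, among them Krt8, Krt18 and Epcam. Csn2 and Wap were at 0, and the epithelial cadherin gene Cdh1 reached only 0.271 to 0.756 CPM, so the mammary label rests on keratins, claudins, Epcam and the casein gene Csn3. Fibroblast markers summed to 1322 to 2973 CPM in Ctrl and 791 to 2067 CPM in EpPT2, with 2 of 10 (Dcn and Pdgfra) above 1 CPM throughout and Postn and Thy1 at 0. Blood and immune markers summed to 16.9 to 106 and 22.8 to 103 CPM, with 3 of 9 above 1 CPM. Of the basal, fat cell and endothelial markers 1 of 7, 1 of 7 and 0 of 5 did so. All of these sums overlapped between the groups. In bulk RNA, fewer cells of a type and less RNA per cell cannot be told apart.

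No gene differed between EpPT2 and Ctrl at an adjusted p under 0.05 in edgeR's quasi-likelihood test (0% of 14471, lowest adjusted p 0.376). An unadjusted p under 0.05 was reached by 1763 genes (12.2%), of which 995 were higher in EpPT2 (6.88%) and 768 lower (5.31%). DESeq2, run on the same genes, called 62 (0.428%), of which 52 were higher (0.359%), and limma-voom called 0, with 1757 genes below 0.05 before adjustment. Of the 62 genes, 19 are predicted genes or pseudogenes. The 3 EpPT2 libraries lay all above or all below the 3 Ctrl libraries in 3358 genes (23.2%), 1781 of them higher (12.3%) and 1577 lower (10.9%). Such a gene is called apart from here on. Levels are TMM-scaled CPM per library in the order 1, 2, 3, and differences are log2, EpPT2 minus Ctrl, with a standard error (SE).

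**Figure D1:**
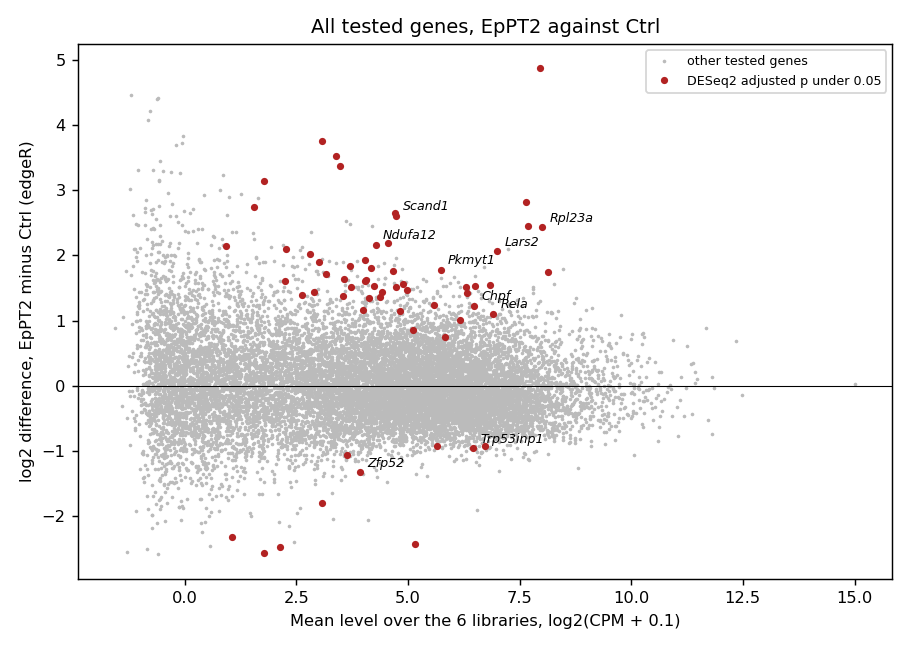
Log2 difference of EpPT2 minus Ctrl from edgeR (vertical axis) against mean level over the 6 libraries as log2(CPM + 0.1) (horizontal axis) for the 14471 tested genes. Red points are the 62 genes called by DESeq2, 52 above 0 and 10 below it, with some of the named genes labelled.

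Among genes of at least 5 CPM that were apart, the higher ones with the smallest p belong to unrelated functions. Being apart was a condition of this choice and is not a further result. Rela, the p65 subunit of NF-kappaB, had 64.5, 92.6 and 71.7 CPM in Ctrl and 163, 156 and 173 CPM in EpPT2. The lowest EpPT2 library was well above the highest Ctrl library, and the log2 difference was 1.10 (SE 0.25). Pkmyt1, a kinase that holds CDK1 inactive before mitosis, had 21.5, 23.6 and 26.7 CPM against 62.9, 90.6 and 93.3 CPM, a log2 difference of 1.78 (SE 0.40). Chpf, a chondroitin polymerising factor, showed very little spread in EpPT2, with 55.0, 56.3 and 48.2 CPM against 125, 125 and 124 CPM (log2 difference 1.23, SE 0.28). Egln2, a prolyl hydroxylase that marks hypoxia-inducible factors for degradation, had 26.4, 30.6 and 29.0 CPM against 54.3, 73.0 and 75.1 CPM (log2 difference 1.23, SE 0.28). When the trend with transcript GC content described below was removed, the Egln2 difference was 0.24, with overlap.

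Rce1, a protease that trims prenylated proteins such as RAS, had 10.2, 12.6 and 11.9 CPM in Ctrl and 25.0, 28.8 and 35.1 CPM in EpPT2, with no overlap. Aldh16a1, of the aldehyde dehydrogenase family, was at 9.62, 8.43 and 6.31 CPM against 24.9, 24.8 and 24.8 CPM. Zfp628 (chromosome 7, 4915217 to 4922002, GRCm38), Armc5 and Fbxl15 were also apart, with log2 differences of 1.53, 1.44 and 2.02. The DESeq2 adjusted p of these 9 genes was 0.014 to 0.029, while edgeR's was 0.376 or more. With the GC trend removed the differences of Armc5, Fbxl15 and Chpf were 0.55, 0.91 and 0.58, and all 3 stayed apart. Those of Aldh16a1, Pkmyt1 and Rce1 were then 1.11, 1.21 and 0.79.

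Among these higher genes the largest differences were in Rpl23a and Ndufa12, and with the GC trend removed they were 2.48 and 2.05. Rpl23a, a protein of the large ribosomal subunit, had 57.9, 85.8 and 96.6 CPM in Ctrl and 480, 465 and 357 CPM in EpPT2, a log2 difference of 2.44 (SE 0.54). Ndufa12, an accessory subunit of respiratory complex I, had 6.02, 8.49 and 6.61 CPM against 54.0, 19.7 and 21.2 CPM, so EpPT2 1 stood far above the other exposed libraries (log2 difference 2.17, SE 0.48). Genes of ribosomal proteins and of small respiratory subunits have near-identical processed copies in the genome, and reads could be split among them, so these values are uncertain.

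The lower genes were chosen in the same way and differed by −1.32 to −0.82, against 1.10 to 2.44 in the higher ones. Zfp52 (chromosome 17, 21535539 to 21562601, GRCm38), a zinc finger gene, had 17.7, 22.5 and 25.1 CPM in Ctrl and 9.02, 7.92 and 9.11 CPM in EpPT2, a log2 difference of −1.32 (SE 0.28). Rab6a, a small GTPase of Golgi transport, had 264, 276 and 304 CPM against 146, 115 and 127 CPM (−1.12, SE 0.30). Gfpt1, the first enzyme of the hexosamine pathway, had 208, 238 and 348 CPM against 127, 122 and 135 CPM (−1.05, SE 0.27). In each of these 3 genes the highest EpPT2 library was far below the lowest Ctrl library.

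Trp53inp1, a p53-inducible gene, had 130, 110 and 109 CPM in Ctrl and 69.9, 57.0 and 53.1 CPM in EpPT2, a log2 difference of −0.96 (SE 0.25). Mbnl2, a regulator of alternative splicing, had 147, 114 and 164 CPM against 85.8, 65.2 and 64.5 CPM (−0.98, SE 0.25). The groups were clear of each other in both genes. Pcm1, a scaffold of centriolar satellites, had 169, 140 and 170 CPM against 86.1, 91.2 and 94.2 CPM, and the centrosomal gene Cep170 124, 123 and 172 CPM against 77.9, 70.1 and 72.5 CPM. Pcmtd1, Zfp53, Dennd4c, Rsbn1 and Acbd5, the last a tether between peroxisomes and endoplasmic reticulum, were lower by 0.84 to 1.24 on the log2 scale and apart. DESeq2 called 4 of these 12 lower genes, Zfp52, Cep170, Pcmtd1 and Trp53inp1.

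**Figure D2:**
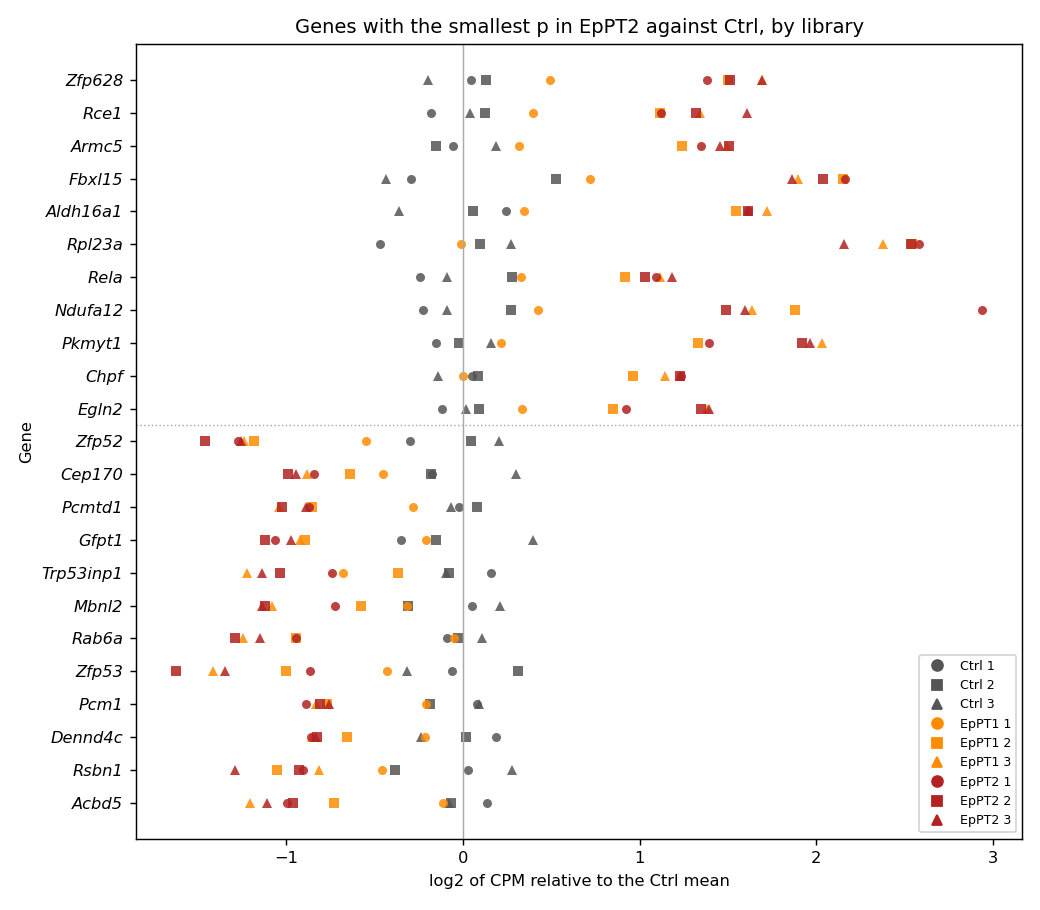
Level of 11 of the 12 higher and of the 12 lower genes with the smallest p in each of the 9 libraries, as log2 of CPM relative to the Ctrl mean (horizontal axis), with 1 row per gene, colours for groups and shapes for replicate numbers. EpPT2 (red) is apart from Ctrl (grey) in all 23 genes because the genes were chosen so, and of the EpPT1 libraries (orange) number 1 lies nearer to EpPT2 in 0 of the higher and 1 of the lower genes.

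The EpPT1 libraries were not used to choose these genes by their groups, although they share the fit. In the 12 higher genes, EpPT1 2 and EpPT1 3 were each nearer to the EpPT2 mean than to the Ctrl mean in 12, and EpPT1 1 in 0. In the 12 lower genes the counts were 11, 12 and 1. Rpl23a shows it, at 79.4, 466 and 416 CPM in EpPT1 1, 2 and 3. The labels give no difference between these EpPT1 libraries.

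The direction of a gene in EpPT2 followed the base composition of its transcript. Among 981 genes with under 40% GC in their longest transcript, the median log2 difference was −0.49 and 13.1% were higher. Among 2497 genes of 55 to 60% GC it was 0.51 with 87.9% higher, and among 533 genes of 60% GC or more it was 0.85 with 95.9% higher. Over all tested genes 47.9% were higher. Of the genes of 60% GC or more, 55.0% were apart and higher and 0.188% apart and lower, while of those under 40% GC 1.33% and 27.8% were. Spearman's rho between the log2 difference and transcript GC was 0.62 over 14458 genes, given as a description because genes share their libraries.

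**Figure D3:**
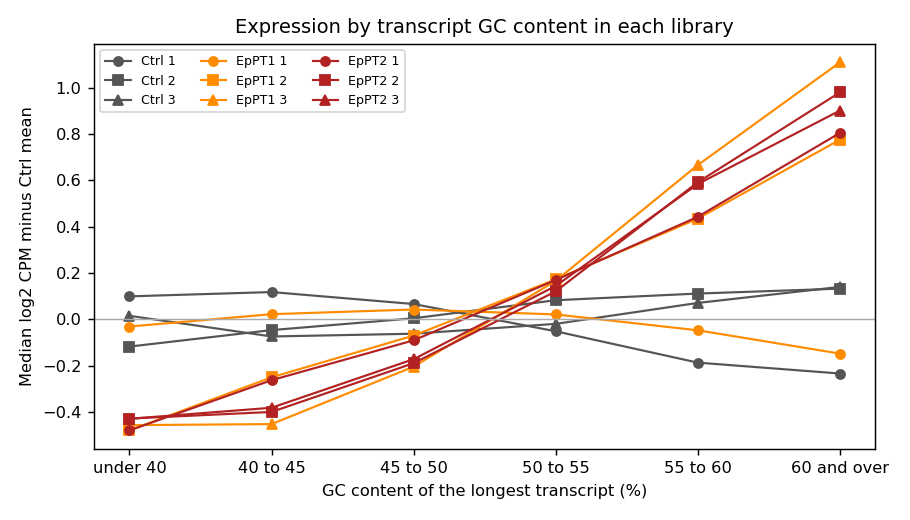
Median over genes of log2 CPM minus the Ctrl mean (vertical axis) in 6 bands of transcript GC content (horizontal axis), with 1 line per library. The 3 EpPT2 lines rise from left to right together with EpPT1 2 and EpPT1 3, whereas EpPT1 1 stays with the 3 Ctrl lines.

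The GC content of the promoter did not show this pattern. Over 10034 tested genes with a RefSeq promoter, Spearman's rho with the log2 difference was 0.038, and genes that were apart had a median promoter GC of 61.7% whether higher or lower, while their median transcript GC was 56.2% and 43.9%. The 12 higher named genes have 48.6% to 63.7% transcript GC and the 12 lower ones 38.8% to 49.3%. When a smooth trend with GC content was removed from each library, 10 of the 12 higher and all 12 lower genes stayed apart. Over all genes 2097 were then apart (14.5%), 891 higher and 1206 lower, and 895 had an unadjusted p under 0.05 (6.19%), 430 higher and 465 lower. The GC trend and the exposure cannot be told apart here, since the trend separated the same libraries.

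Other classes of RNA moved with the same libraries. Counts assigned to CT010467.1 and Gm26917, which lie over 45S ribosomal RNA sequence, summed to 75.1 to 135 CPM without scaling in Ctrl and 617 to 748 CPM in EpPT2, 6.32 times higher, and to 92.4, 403 and 734 CPM in EpPT1. Annotated miRNA genes, whose precursors are short, held 29.1 to 113 CPM in Ctrl and 496 to 587 CPM in EpPT2. Lars2, the mitochondrial leucyl-tRNA synthetase, had 44.5, 47.1 and 57.1 CPM in Ctrl and 236, 209 and 177 CPM in EpPT2, a log2 difference of 2.06 (SE 0.51). CAAA01118383.1, annotated as protein coding, was at 4.84, 6.88 and 9.84 CPM against 38.7, 46.8 and 49.3 CPM. Scand1, a SCAN domain gene with 68% GC in its transcript, had 2.92, 8.73 and 10.7 CPM against 50.0, 45.8 and 41.0 CPM. All of these were apart, and their part in the differences of other genes was not tested.

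Promoters of genes described next are shown because the same families of factors are known to act on early response, stress and mitotic genes, and because promoters of the higher genes Junb, Ier5 and Atf4 and of the lower genes Ndc80 and Bub1 can be compared. Each runs from 250 bases before to 50 after the start, 5′ to 3′ on the gene's strand, and comes from RefSeq for GRCm38.p6. Capitals mark, on either strand, TGACTCA (AP-1), TGACG (a short form of the cyclic AMP response element), TTTGAA (the cell cycle homology region) and CCAAT, and adjoining or overlapping matches run together. The promoter of Junb is chr8:84978699-84978998 (minus strand), of Ier5 chr1:155099587-155099886 (minus), of Atf4 chr15:80254934-80255233 (plus), of Ndc80 chr17:71526808-71527107 (minus) and of Bub1 chr2:127831810-127832109 (minus).
Junb: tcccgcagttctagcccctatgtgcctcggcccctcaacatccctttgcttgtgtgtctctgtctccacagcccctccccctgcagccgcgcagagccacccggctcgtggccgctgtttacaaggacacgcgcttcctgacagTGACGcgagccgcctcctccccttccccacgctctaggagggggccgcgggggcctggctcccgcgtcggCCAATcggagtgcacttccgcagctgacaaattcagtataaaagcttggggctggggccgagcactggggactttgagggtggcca
Ier5: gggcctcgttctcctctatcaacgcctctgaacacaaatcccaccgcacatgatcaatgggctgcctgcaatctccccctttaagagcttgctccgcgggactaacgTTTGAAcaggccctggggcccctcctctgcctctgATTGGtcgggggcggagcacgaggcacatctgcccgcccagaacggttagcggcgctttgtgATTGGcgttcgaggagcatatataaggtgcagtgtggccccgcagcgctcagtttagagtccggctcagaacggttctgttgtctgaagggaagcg
Atf4: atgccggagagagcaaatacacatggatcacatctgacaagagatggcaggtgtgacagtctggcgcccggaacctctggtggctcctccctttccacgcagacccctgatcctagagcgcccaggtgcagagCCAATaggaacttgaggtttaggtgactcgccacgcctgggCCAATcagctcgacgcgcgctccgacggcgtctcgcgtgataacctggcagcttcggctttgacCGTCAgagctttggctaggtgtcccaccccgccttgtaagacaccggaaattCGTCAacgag
Ndc80: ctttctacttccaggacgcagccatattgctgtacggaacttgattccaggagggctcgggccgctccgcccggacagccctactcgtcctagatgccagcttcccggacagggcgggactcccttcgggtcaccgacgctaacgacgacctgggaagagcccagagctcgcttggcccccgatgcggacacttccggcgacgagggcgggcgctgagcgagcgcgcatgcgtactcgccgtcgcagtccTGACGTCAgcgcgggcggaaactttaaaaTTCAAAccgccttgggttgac
Bub1: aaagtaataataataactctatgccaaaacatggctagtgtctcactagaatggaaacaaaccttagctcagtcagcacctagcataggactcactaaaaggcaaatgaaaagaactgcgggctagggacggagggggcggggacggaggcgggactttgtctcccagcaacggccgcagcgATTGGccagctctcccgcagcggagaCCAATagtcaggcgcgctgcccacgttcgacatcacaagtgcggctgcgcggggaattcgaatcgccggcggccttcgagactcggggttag
Promoter and transcript differed in composition in the lower genes. Ndc80 has 64.0% GC in this promoter and 42.4% in its transcript, and Bub1 56.0% and 41.0%. Junb has 65.3% and 62.6%, Ier5 59.0% and 52.3%, and Atf4 59.0% and 55.5%.

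Of 10031 promoters of tested gene symbols, 3.84% hold TGACTCA, 31.4% TGACG, 12.1% TTTGAA and 39.2% CCAAT. Of the 8 immediate early genes that were apart 6 had a promoter in the table, and of these 0 hold TGACTCA, 1 TTTGAA (Ier5), 2 TGACG (Junb and Srf) and 3 CCAAT (Ier5, Junb and Srf). Of the 6 stress response genes that were apart, 3 hold TGACG (Atf4, Cebpb and Chac1) and 3 CCAAT. Of the 5 kinetochore genes that were apart, 1 holds TTTGAA (Ndc80), 3 TGACG and 2 CCAAT. These are matches of letters in a short window and not measured binding.

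Early response transcription factors were mostly higher in EpPT2. Of 25 tested members 20 had a positive difference, 8 were apart and higher (32.0%, against 12.3% of all tested genes) and 0 apart and lower, with a median of 0.63 against −0.03 over all tested genes. The members have a median of 54.4% GC, and in the band of 50 to 55% GC 12.2% of all genes were apart and higher and in that of 55 to 60% 32.3%. Junb, a JUN family subunit of AP-1, had 80.7, 103 and 157 CPM in Ctrl and 277, 241 and 197 CPM in EpPT2. Srf, the serum response factor, had 37.8, 16.7 and 18.8 CPM against 87.5, 46.2 and 48.4 CPM (log2 difference 1.31, SE 0.48). Both were apart, and with the GC trend removed their differences were 0.11 and 0.09.

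Ier5, a regulator of the heat shock response, kept a difference of 0.80 after removal of the GC trend (0.97 before it), with 98.7, 112 and 127 CPM in Ctrl and 266, 212 and 186 CPM in EpPT2. Myc was apart at 263, 166 and 355 CPM against 378, 399 and 401 CPM. The classical members overlapped, because Ctrl 3 was high. Fos had 47.8, 20.0 and 161 CPM against 63.4, 291 and 207 CPM, and Jun 59.6, 63.9 and 297 CPM against 162, 249 and 196 CPM. Atf3, an ATF family factor induced by stress, reached 945 CPM in Ctrl 3 and 115 to 270 CPM in the other 5 libraries. The median of the list was 0.95 in the libraries of low mitochondrial share, 0.20 in those of high share and 0.26 with the GC trend removed.

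Genes of the integrated stress response gave a similar picture. Of 22 tested members 16 had a positive difference, 6 were apart and higher (27.3%) and 0 apart and lower, with a median of 0.35 and a median GC content of 55.6%. Of all genes in the band of 55 to 60% GC, 32.3% were apart and higher, with a median of 0.51. The list was thus no higher than that band. Gdf15, a secreted stress hormone, had 31.2, 54.9 and 84.8 CPM in Ctrl and 261, 222 and 251 CPM in EpPT2. The groups lay far apart, with a log2 difference of 2.10 (SE 0.62) that was 1.27 with the GC trend removed, 2.61 in the low and 1.48 in the high mitochondrial share libraries. Atf4 (chromosome 15, 80255184 to 80257541, GRCm38), the central factor of the response, had 109, 100 and 227 CPM against 288, 349 and 338 CPM (1.16, SE 0.37), and 0.75 with the GC trend removed. Atf5 had 14.8, 13.3 and 19.4 CPM against 52.6, 35.1 and 33.4 CPM (1.35, SE 0.48), and 0.44 with overlap once the GC trend was removed. Cebpb was apart as well, at 27.5, 40.8 and 81.8 CPM against 98.1, 90.5 and 95.4 CPM, but its difference of 0.92 became −0.40 with the GC trend removed. The median of the list was then 0.04.

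**Figure D4:**
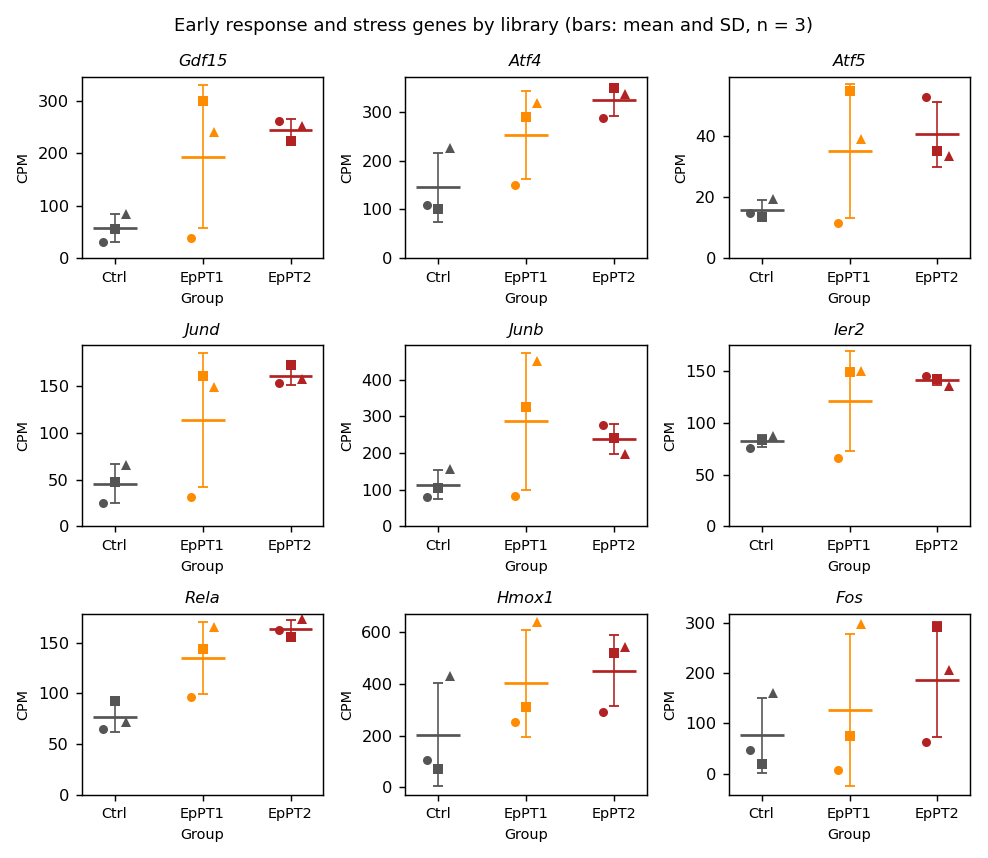
Levels in CPM (vertical axes) of 9 early response and stress genes in the 3 libraries of Ctrl, EpPT1 and EpPT2, with the mean and SD as bars and replicate numbers as shapes. EpPT2 is apart from Ctrl in Gdf15, Atf4, Atf5, Jund, Junb, Ier2 and Rela and overlaps it in Hmox1 and Fos, where Ctrl 3 is the highest control. With the GC trend removed, the log2 difference of Ier2 went from 0.78 to −0.09, with overlap. That of Jund went from 1.82 to 0.48, still apart.

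In other stress programmes members lay in both directions. Of 21 genes of the unfolded protein response, which senses misfolded protein in the endoplasmic reticulum, 0 were apart, and the median was −0.06. It was −0.23 in the low and −0.31 in the high mitochondrial share libraries and −0.19 with that share as covariate, but 0.30 without Ctrl 3 and 0.18 without EpPT2 1. Among 13 heat shock chaperones 1 was apart in each direction (7.69%), with a median of −0.36. Hsp90aa1 had 2796, 1545 and 1591 CPM against 1621, 820 and 870 CPM, with overlap. Of 22 targets of NRF2, the factor that answers oxidative stress, 3 were apart in each direction (13.6%), with a median of 0.00. Over all tested genes 12.3% were apart and higher and 10.9% apart and lower. Ferritin light chain Ftl1 was higher at 621, 871 and 1174 CPM against 1279, 1642 and 1696 CPM, and Me1, which makes NADPH, lower at 416, 412 and 310 CPM against 280, 203 and 230 CPM. With the GC trend removed the Ftl1 difference went from 0.79 to 0.18, with overlap. Haem oxygenase Hmox1 overlapped, at 105, 72.2 and 431 CPM against 292, 518 and 540 CPM. Of 18 antioxidant enzymes 2 were apart in each direction (11.1%), among them superoxide dismutase Sod1 at 202, 218 and 310 CPM against 360, 360 and 353 CPM.

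Among 26 p53 targets 4 were apart and higher (15.4%) and 3 apart and lower. Both shares lay near those of all tested genes, 12.3% and 10.9%. Bbc3, which encodes the cell death protein PUMA, had 3.29, 6.70 and 6.98 CPM in Ctrl and 20.5, 19.5 and 20.8 CPM in EpPT2 (log2 difference 1.84, SE 0.48). Its transcript has 65% GC, and with the GC trend removed the difference was 0.65, still apart. The DNA polymerase gene Polk lay the other way at 77.1, 90.2 and 80.8 CPM against 46.2, 42.8 and 38.8 CPM (−0.96, SE 0.28). The cell cycle inhibitor Cdkn1a overlapped, with a difference of 0.06 (SE 0.27). Against 12.3% and 10.9% of all tested genes, 1 of 19 hypoxia targets was apart and higher (5.26%) and 2 apart and lower. Of these 19 targets 15 had a negative difference. Their median of −0.19 was −0.35 in the low and −0.48 in the high mitochondrial share libraries and −0.40 with that share as covariate, but 0.50 without Ctrl 3, the control of high share.

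Of 20 genes of NF-kappaB signalling, a pathway of inflammation and stress, 5 were apart and higher (25.0%, against 12.3% of all tested genes) and 0 apart and lower, with a median of 0.25. Besides Rela, Nfkb2 had 75.3, 88.3 and 64.5 CPM against 137, 118 and 108 CPM, and Relb 23.8, 25.0 and 21.8 CPM against 37.0, 37.3 and 31.8 CPM. Icam1, an adhesion molecule and target of the pathway, had 46.8, 60.8 and 40.0 CPM against 66.5, 79.7 and 74.1 CPM. These 4 genes were apart, with 55% to 59% GC, and the list median was 0.05 with the GC trend removed and −0.18 in the libraries of low mitochondrial share. Of the ERK feedback regulators, Dusp8, a phosphatase of MAP kinases, was higher at 7.20, 11.2 and 20.7 CPM against 29.1, 52.3 and 53.5 CPM (1.79, SE 0.50), and Spred2, an inhibitor of RAF activation, lower at 121, 143 and 130 CPM against 95.4, 80.9 and 78.3 CPM (−0.63, SE 0.21).

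The respiratory chain, to which the proposed light absorber belongs, held members in both directions. Of 13 messenger RNAs of the mitochondrial genome 3 were apart and higher (23.1%, against 12.3% of all tested genes) and 0 apart and lower, with a median of 0.14. That median was 0.11 in the low and −0.04 in the high mitochondrial share libraries and 0.02 with that share as covariate. With the GC trend removed 6 of the 13 were apart and higher and 0 apart and lower, with a median of 0.53, or 0.46 with the covariate as well. Over all genes 891 of 14458 were then apart and higher. The cytochrome b gene mt-Cytb had 2269, 2595 and 2063 CPM in Ctrl and 4206, 3823 and 4712 CPM in EpPT2, a log2 difference of 0.88 (SE 0.25) that was 0.80 and 1.05 within the low and high mitochondrial share libraries. The complex I gene mt-Nd4 had 1154, 1518 and 1770 CPM against 1887, 2455 and 2901 CPM. Both were apart although their transcripts have low GC. The cytochrome c oxidase subunit mt-Co1 overlapped and followed the mitochondrial share, at 15858, 20866 and 62314 CPM against 15111, 39196 and 46130 CPM.

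Of 12 nuclear subunits of cytochrome c oxidase 4 were apart and higher (33.3%) and 3 apart and lower (25.0%), against 12.3% and 10.9% of all tested genes. Cox6a1 had 159, 278 and 300 CPM against 446, 715 and 723 CPM (1.35, SE 0.45), and Cox8a 91.3, 146 and 101 CPM against 221, 184 and 175 CPM. Cox7a2l, also found in respiratory supercomplexes, was lower at 199, 220 and 220 CPM against 147, 129 and 136 CPM, and Cox4i1 overlapped (−0.05, SE 0.19). Cox6a1 and Cox8a have 63% and 59% GC and differences of 0.35 and 0.12 with the GC trend removed, while Cox4i1, with 58% GC, was then apart and lower (−0.68).

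Complex I and ATP synthase also had members apart in each direction. Of 37 nuclear complex I subunits 10 were apart and higher (27.0%) and 3 apart and lower (8.11%), with a median of 0.08. Of all tested genes 12.3% were apart and higher and 10.9% apart and lower. With the GC trend removed 10 of the subunits were apart and higher and 4 apart and lower, with a median of −0.01. Over all genes these counts were then 891 and 1206 of 14458. Ndufb11 had 55.7, 62.2 and 51.7 CPM against 141, 91.4 and 102 CPM, and Ndufa3 23.5, 28.8 and 25.9 CPM against 55.7, 47.2 and 45.4 CPM. Of 16 nuclear ATP synthase subunits 5 were apart and higher (31.2%) and 4 apart and lower (25.0%), with a median of 0.01. Atp5d, of the F1 stalk, had 56.0, 109 and 83.6 CPM against 188, 168 and 165 CPM, whereas Atp5h, of the peripheral stalk, had 177, 171 and 187 CPM against 127, 113 and 100 CPM. With the GC trend removed Atp5d overlapped (0.36, against 1.07 before) and Atp5h stayed apart and lower (−0.52). Atp5k, a small membrane subunit, was at 1.49, 4.90 and 4.43 CPM against 34.5, 13.0 and 14.8 CPM.

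Esrra, a nuclear receptor that drives mitochondrial genes, had 12.5, 27.9 and 21.4 CPM against 49.5, 63.0 and 56.0 CPM, a log2 difference of 1.45 (SE 0.43) that was 1.41 with the GC trend removed. Dnm1l, the dynamin that divides mitochondria, was lower at 176, 184 and 171 CPM against 110, 108 and 115 CPM (−0.67, SE 0.23). Both were apart in a list of 20 biogenesis and dynamics genes. Of these 4 were apart and higher (20.0%) and 6 apart and lower (30.0%), against 12.3% and 10.9% of all tested genes. Of 8 tested light-sensitive proteins and light-linked channels only Cry2, a cryptochrome of the circadian clock, was apart, at 12.5, 14.7 and 16.4 CPM against 22.1, 21.6 and 19.7 CPM. The opsin Opn3 lay at 2.15 to 3.68 CPM and 2.54 to 4.16 CPM. The clock gene Per1 was apart, at 14.1, 16.7 and 15.8 CPM against 41.3, 23.8 and 25.6 CPM, with EpPT2 1 the highest. With the GC trend removed the differences of Cry2 and Per1 went from 0.54 and 0.96 to 0.11 and 0.24, both with overlap, and the channel gene Piezo1 was apart and lower (−0.40, against 0.32 before).

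Cytosolic ribosomal protein genes also split. Of 45 of the large subunit 12 were apart and higher (26.7%) and 9 apart and lower (20.0%), and of 33 of the small subunit 8 (24.2%) and 6 (18.2%). The shares of all tested genes were 12.3% and 10.9%. Rpl28 had 250, 345 and 430 CPM against 796, 795 and 744 CPM, and Rps28 71.3, 122 and 129 CPM against 301, 269 and 248 CPM. Rps12 lay the other way at 1367, 1445 and 1544 CPM against 717, 716 and 654 CPM, as did Rpl22 at 458, 459 and 591 CPM against 324, 274 and 267 CPM. The difference stayed near its size with the GC trend removed in all 4 (0.99, 1.37, −0.84 and −0.79). In translation initiation, 24 of 35 factors had a negative difference, 6 were apart and lower (17.1%, against 10.9% of all tested genes) and 2 apart and higher, with a median of −0.10, or −0.03 in the low mitochondrial share libraries. Eif3e was lower at 778, 601 and 743 CPM against 466, 359 and 356 CPM. With the GC trend removed 3 factors were apart and lower, and Eif3e overlapped (−0.43). Taf1c, of the selectivity factor for RNA polymerase I, was higher at 6.51, 4.96 and 5.71 CPM against 17.7, 18.9 and 16.7 CPM (1.63, SE 0.38).

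Genes of the centrosome and cilium were mostly lower. Of 50 tested members 37 had a negative difference. Apart and lower were 11 and apart and higher 3 (22.0% and 6.00%, against 10.9% and 12.3% of all tested genes). The median of −0.28 was −0.26 with the GC trend removed, −0.26 in the low and −0.15 in the high mitochondrial share libraries. Cep192, which recruits the mitotic centrosome's proteins, had 106, 105 and 105 CPM in Ctrl and 67.5, 72.8 and 66.1 CPM in EpPT2. Pericentrin, Pcnt, was higher at 58.1, 56.4 and 50.2 CPM against 72.3, 92.1 and 86.5 CPM. Of 37 kinetochore genes 29 had a negative difference and 5 were apart and lower (13.5%), with a median of −0.36 that was −0.40 in the low and 0.06 in the high mitochondrial share libraries. The list has a median of 43.2% GC, and of all genes in the band of 40 to 45% GC 23.1% were apart and lower, with a median of −0.37, so the kinetochore genes were no lower than that band. With the GC trend removed their median was −0.17 and 1 was apart and lower. Mad2l1, of the spindle checkpoint, had 327, 234 and 257 CPM against 206, 154 and 155 CPM.

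Control of the cell cycle was mixed. Incenp, a partner of Aurora B, was higher at 126, 168 and 120 CPM against 212, 274 and 259 CPM (0.85, SE 0.24), and E2f1, a driver of S phase genes, at 34.8, 54.3 and 30.7 CPM against 60.4, 71.1 and 60.4 CPM. With the GC trend removed the difference of E2f1 went from 0.68 to 0.01, with overlap, while Incenp stayed apart (0.48). The retinoblastoma gene Rb1 was lower at 26.6, 21.3 and 24.6 CPM against 12.4, 14.4 and 11.6 CPM (−0.91, SE 0.29). The proliferation marker Mki67 overlapped and followed the mitochondrial share, at 781, 668 and 947 CPM against 617, 1342 and 1363 CPM. Of 36 replication and G1/S genes 1 was apart and higher (2.78%) and 2 apart and lower (5.56%), against 12.3% and 10.9% of all tested genes. Of 319 numbered zinc finger genes, a family with a median transcript GC of 43.6%, 229 had a negative difference and 64 were apart and lower (20.1%), with a median of −0.34, or −0.14 with the GC trend removed.

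Lysosomal and autophagy genes held members in both directions. Of 30 lysosomal genes 24 had a positive difference. Apart and higher were 6 (20.0%) and apart and lower 2 (6.67%), against 12.3% and 10.9% of all tested genes. Their median of 0.34 over all 30 was −0.08 in the libraries of low mitochondrial share and 0.11 with the GC trend removed. Ctsd, the protease cathepsin D, had 87.7, 137 and 139 CPM in Ctrl and 234, 355 and 388 CPM in EpPT2 (1.43, SE 0.43; 0.97 with the GC trend removed). Atp6v1a, a catalytic subunit of the proton pump, lay the other way at 177, 195 and 134 CPM against 109, 87.5 and 85.1 CPM (−0.85, SE 0.28). Of 32 autophagy genes 3 were apart and higher and 7 apart and lower (21.9%), with a median of 0.01. Atg12, a ubiquitin-like protein that conjugates to ATG5, had 63.3, 69.5 and 75.2 CPM against 36.9, 41.3 and 40.0 CPM, and the protease gene Atg4d 14.5, 14.2 and 13.4 CPM against 28.6, 31.2 and 27.9 CPM.

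Of 27 genes of the COPII and COPI vesicle coats 0 were apart and higher and 5 apart and lower, with a median of −0.11. These are 0% and 18.5%, against 12.3% and 10.9% of all tested genes. Copb1, of the COPI coat, had 226, 224 and 248 CPM against 146, 146 and 161 CPM (−0.62, SE 0.20). Of 31 proteasome genes 1 was apart and higher and 5 apart and lower (16.1%), such as Psmd12 at 237, 221 and 248 CPM against 166, 137 and 134 CPM. In glycosylation, Mgat1, which starts complex N-glycans, was higher at 44.5, 41.3 and 45.4 CPM against 68.7, 116 and 124 CPM (1.23, SE 0.34), while Uap1 of the hexosamine pathway was lower at 97.8, 134 and 141 CPM against 70.9, 79.7 and 85.6 CPM.

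Genes of the matrix had mostly positive differences before and after the GC trend was removed, and integrins and laminins only before. Of 14 tested collagens 12 were positive and 3 apart and higher (21.4%), with a median of 0.75 and a median GC content of 57.2%. In the band of 55 to 60% GC 32.3% of all genes were apart and higher, with a median of 0.51. With the GC trend removed 10 collagens were positive and 0 apart, with a median of 0.21. Col4a2, of the basement membrane, overlapped at 53.9, 70.7 and 145 CPM against 89.1, 195 and 202 CPM, with Ctrl 3 above EpPT2 1. Of 11 metalloproteinases and inhibitors 8 were positive and 4 apart and higher (36.4%, against 12.3% of all tested genes), with a median of 0.81. With the GC trend removed 9 were positive and 2 apart and higher, with a median of 0.20. Mmp11 had 3.97, 6.28 and 7.51 CPM against 9.69, 22.7 and 22.0 CPM (1.62, SE 0.51). Of 17 matrix glycoproteins and crosslinkers 14 were positive, or 13 with the GC trend removed. Apart and higher was 1 (5.88%), the basement membrane proteoglycan gene Agrn at 325, 412 and 428 CPM against 524, 833 and 801 CPM. Of 18 integrins and laminins 12 were positive, with a median of 0.42 that was −0.08 in the libraries of low mitochondrial share and −0.06 with the GC trend removed, when 7 were positive. Apart and higher were 3 (16.7%), led by Itga7, a laminin receptor subunit, at 16.5, 13.4 and 12.7 CPM against 42.3, 41.5 and 46.5 CPM (1.61, SE 0.47).

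Epithelial identity genes lay in both directions. Of 9 tested keratins 0 were apart, with Krt8 at 559, 836 and 770 CPM against 775, 699 and 612 CPM. With the GC trend removed 2 keratins were apart and lower, Krt8 (−0.59) and Krt18 (−0.69). Of 23 junction genes 2 were apart and higher (8.70%) and 3 apart and lower (13.0%), against 12.3% and 10.9% of all tested genes. The claudin Cldn3 had 79.4, 176 and 214 CPM against 250, 576 and 562 CPM (1.56, SE 0.56; 0.57 with overlap once the GC trend was removed), and the scaffold Tjp1 365, 306 and 294 CPM against 243, 205 and 196 CPM (−0.58, SE 0.22). Crb3, an apical polarity gene, was higher at 6.02, 11.2 and 14.8 CPM against 27.6, 38.5 and 34.9 CPM (1.66, SE 0.49). Of 15 prolactin, glucocorticoid and STAT5 genes 4 were apart and higher (26.7%), among them Per1, and 3 apart and lower (20.0%), and with the GC trend removed 1 and 2. The glucocorticoid receptor gene Nr3c1 was lower at 330, 288 and 312 CPM against 200, 220 and 224 CPM, and Stat5a, which carries the prolactin signal, at 91.6, 105 and 103 CPM against 81.8, 71.5 and 70.7 CPM. Of 7 tested milk protein genes 0 were apart, and the casein gene Csn3 followed the mitochondrial share at 23.0, 28.2 and 95.3 CPM against 30.6, 102 and 104 CPM.

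Lipid genes were apart in a few members. Of 25 cholesterol synthesis genes 3 were apart and higher (12.0%, near the 12.3% of all tested genes) and 0 apart and lower, with a median of −0.03. Srebf1, a driver of lipid synthesis, had 96.4, 135 and 95.4 CPM against 177, 221 and 215 CPM (0.90, SE 0.27). Of 20 glycolysis genes 0 were apart, and Pkm overlapped at 1297, 1699 and 1376 CPM against 1788, 1632 and 1644 CPM. Among zinc transporters, Slc39a3, a zinc importer, was higher at 9.31, 10.6 and 9.54 CPM against 21.3, 27.5 and 26.0 CPM (1.34, SE 0.34, DESeq2 adjusted p 0.042).

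**Figure D5:**
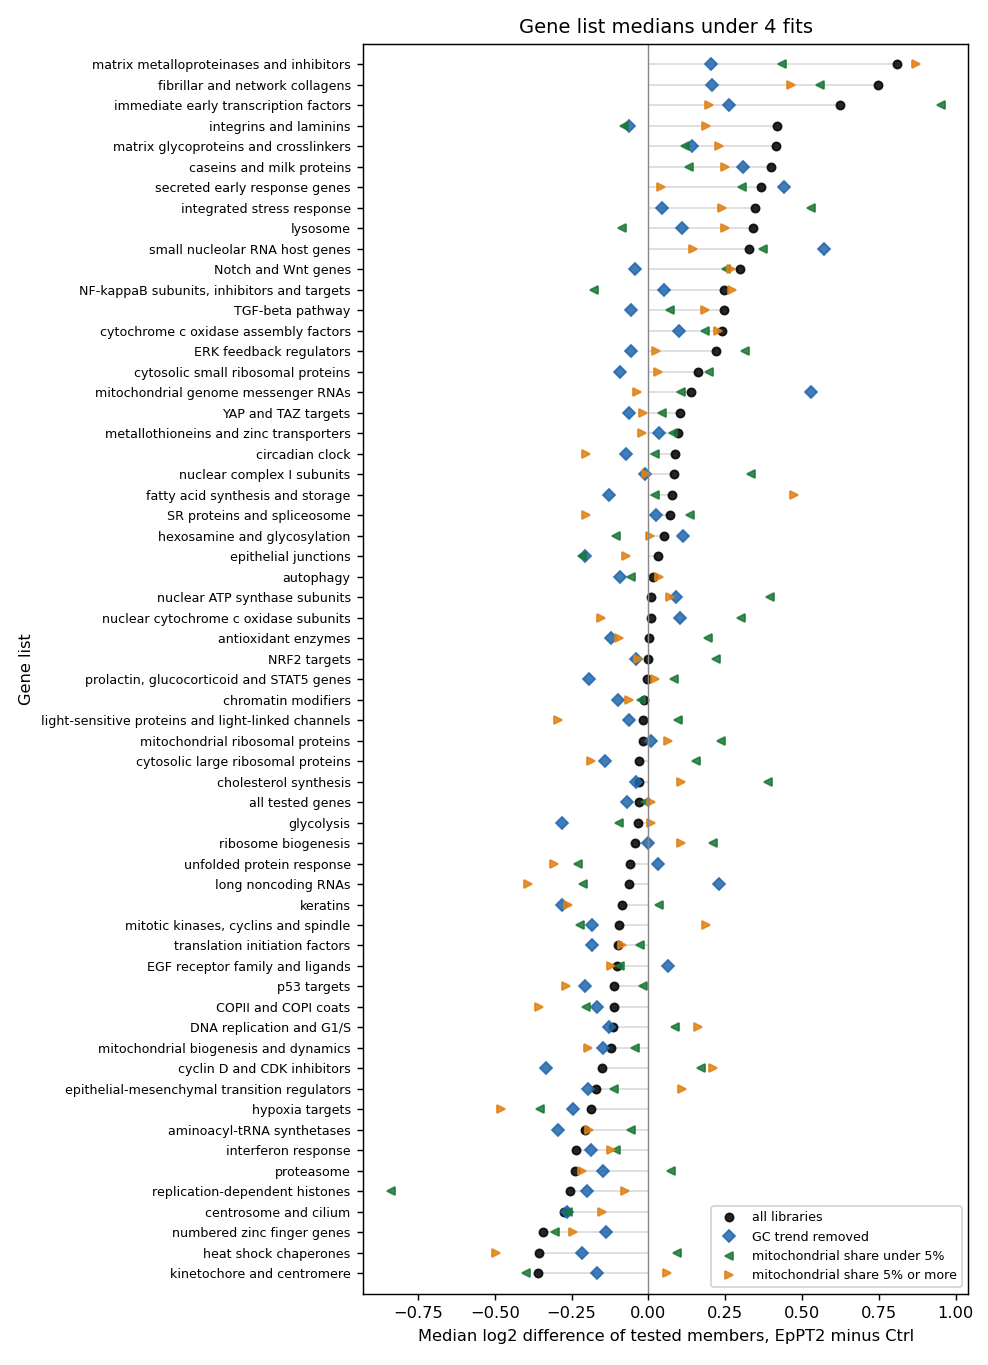
Median log2 difference, EpPT2 minus Ctrl (horizontal axis), of the tested members of each gene list (vertical axis) in all libraries (black), with the GC trend removed (blue), and within the libraries of mitochondrial share under 5% (green) or 5% and more (orange). Immediate early genes have 0.63, 0.26, 0.95 and 0.20 in that order and kinetochore genes −0.36, −0.17, −0.40 and 0.06.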

How the data were processed

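The 9 HC11 libraries are columns of 1 table of raw gene counts, as the authors deposited it. Alignment used Bowtie 0.12.2 and build mm8, per the submitters' processing notes. Gene coordinates in that table equal those of GENCODE M21 on GRCm38 in start and end for 53585 of 54495 gene IDs found there (98.3%), so GRCm38 is used here. The sources used here name neither the counter nor its strand setting, so overlapping and antisense genes cannot be separated. The deposited gene length column was used only in a description.

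In R 4.3.3, edgeR 4.0.16 was run with TMM scaling, filterByExpr and 1 quasi-likelihood fit over all 9 libraries (6 residual degrees of freedom), with a two-sided contrast of EpPT2 minus Ctrl and Benjamini-Hochberg adjustment over 14471 genes at a threshold of 0.05. The spread of libraries within groups, which edgeR calls biological variation (coefficient 39.3%), came with a median SE of 0.37 per log2 difference. Whether it is biological is not known here. DESeq2 1.42.0 and limma 3.58.1 (voom) were alternatives. The GC trend was a spline with 5 degrees of freedom on the GC content of the longest transcript, removed per library as an offset (13 tested genes had none). Libraries were divided at 5% mitochondrial counts. The fits were tested on simulated data. Other alternatives were DESeq2 size factors in edgeR, a filter at 5 CPM in 3 libraries or none, only the 6 libraries, a replicate block, the mitochondrial share as covariate, and leaving out each library.

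Members and gene lists were chosen with earlier results of these data known, so lists get no test. Named genes are the 12 higher and 12 lower with the smallest p among apart genes of at least 5 CPM (without predicted genes and pseudogenes), up to 4 per list by p, the 6 largest each way called by DESeq2, fixed genes and the 6 most abundant. Other genes named in a list or as markers, such as Chac1 and Epcam, were named after their values were seen. Of the 12 higher genes 1 is counted but not reported here. No molecular identifiers are recorded.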

Additional observations from a re-analysis of the deposited data

How the results depend on the processing

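The count of 0 genes at an adjusted p under 0.05 held with DESeq2 size factors in edgeR, the stricter filter, only the 6 libraries (lowest adjusted p 0.0816), limma-voom, the GC trend removed (also with the block or the covariate), the mitochondrial covariate and the libraries of low mitochondrial share. It was 268 without a filter and 62 in DESeq2. In the libraries of high mitochondrial share it was 6199, with 1 residual degree of freedom, the spread resting on EpPT2 2 and EpPT2 3 and Ctrl 3 assumed to vary as little. Leaving out 1 library gave 0 to 2, the 2 being Rpl23a (edgeR adjusted p = 0.0478) and the predicted gene Gm8210 (0.0478, named after its values were seen) without EpPT1 1. The 1763 genes at an unadjusted p under 0.05 became 3533 with the mitochondrial covariate (24.4%), 895 with the GC trend removed, 512 in the low and 7298 in the high mitochondrial share libraries. Leaving out 1 library gave 827 to 2407, with 988 without Ctrl 1, 827 without EpPT2 2 and 845 without EpPT2 3. The split of higher and lower genes was 995 and 768, against 410 and 102 in the low mitochondrial share libraries and 430 and 465 with the GC trend removed. Genes that were apart numbered 3358, and 2097 with the GC trend removed. With the replicate number as a block, 0 genes passed and 3056 had an unadjusted p under 0.05. Same-numbered libraries correlated at 0.73, −0.16 and 0.63 in their deviations, and number 2 of EpPT2 did not go best with its own number, so the numbers are not taken as pairs. Of 273 named genes, 30 of the 272 that could be fitted changed sign with the GC trend removed and 13 in the low mitochondrial share libraries. In the high share libraries 4 were called in the other direction, Cdkn1a (−0.33), Jun (−0.41), Txnip (0.53) and mt-Co1 (−0.54). The cause was not tested.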
